A study of Mus musculus with 32 samples.

Results

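The comparison described here is the step from day 2 to day 4 in the unmodified (WT) retinal organoid culture. Its members are 4 of the 32 libraries of the series, namely the 2 WT libraries of day 4 and the 2 WT libraries of day 2, compared across all genes. The series followed mouse embryonic stem cells as they formed retinal organoids, small cell aggregates that take the path of the embryonic eye, and measured polyadenylated RNA at days 0, 2, 4 and 6. WT is the Rx:GFP line, named for a GFP reporter of Rx, now Rax. Every group of days 2 and 4 used here, and WT at day 6, was grown with 0.1 µM of a compound labelled AGN. The WT stem cells of day 0 were untreated by their label, so that in the changes from day 0 to day 2 given below, time and AGN cannot be told apart. Besides WT, the comparison draws on a line labelled Mettl3 KO, lacking by its label the writer of N6-methyladenosine (m6A) on RNA. It also draws on that KO line carrying a METTL3-GRBD fusion and given 10 µM dexamethasone (Dex), which according to the study's design text moves the fusion protein into the nucleus. Each group held 2 libraries, made in separate rounds of library preparation, and the labels do not say that the duplicates were separate cultures. The p-values below may therefore measure technical spread only. Each line is a single one, so no statement extends to other clones.

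As background, embryonic stem cells leave naive pluripotency through a formative state resembling the early epiblast, and then choose between lineages. When Nodal, BMP and Wnt signals are low, epiblast cells become anterior neural plate. Within that plate a group of homeobox genes, among them Rax, Six3, Pax6 and Lhx2, marks the eye field, from which the optic vesicles and later the retina grow. Low oxygen is sensed in all these cells through HIF transcription factors, which bind a short DNA element, the hypoxia response element, and raise genes of glucose uptake and glycolysis.

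Levels are given as FPKM, fragments per kilobase of transcript scaled to library size, as the authors deposited them. Changes are differences of log2(FPKM + 1) between days, written as log2 changes with the standard error (SE) of the fit, and understate the change of genes near 0. A gene was called when its limma p-value, adjusted over all 16276 tested genes by Benjamini-Hochberg, was under 0.05, and "rose" or "fell" is used of called genes only. Estimated depth was between 35.5 M and 45.0 M fragments (M, mega) in the 4 libraries. Duplicates correlated at r = 0.994 at day 2 and r = 0.995 at day 4 across genes, which are not independent replicates. In these bulk libraries, fewer cells of a type and less RNA per cell cannot be told apart.

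Between day 2 and day 4, 9750 of 16276 tested genes were called, which is 59.9%. Of these 5578 were higher at day 4 (34.3%) and 4172 were lower (25.6%), and the median change of all tested genes was 0.04. After median-of-ratios rescaling, which sets the libraries to a common median gene, 4733 were higher and 5137 lower, with a median of -0.009. The excess of rises over falls thus depended on the scaling. Most changes were small. Among called genes, 1169 rises and 1126 falls were under 0.25 on the log2 scale, while 1310 changes were of at least 1 (8.05%), that is, 730 genes rose by at least 1 (4.49%) and 580 fell by at least 1 (3.56%). Rises of 4 or more numbered 9, all described below. The 2 falls of that size, named after their values were seen, were Gm11635, a long noncoding RNA (33.00 and 22.11 FPKM, then listed at 0 in both), and Gm26083, a small Cajal body RNA (523.41 and 514.98 FPKM, then 24.40 and 17.74 FPKM). Small RNAs of that kind are poorly captured by polyA selection, so their values are uncertain. With libraries this alike, 78.9% of tested genes had day 2 and day 4 values that did not overlap, so separation of the duplicates is the ordinary case and is stated below only to describe the values. Among called genes 606 went from under 1 FPKM in both day 2 libraries to at least 1 FPKM in both day 4 libraries, and 397 went the other way. Counts within the gene lists below are of tested members, and some lists hold further genes that were not tested. They stand beside the shares over all tested genes, 34.3% higher and 25.6% lower. For the steps from day 0 to day 2 and from day 4 to day 6 such shares are not given. Nor are they given for the day 2 to day 4 step within the other cultures. Counts of calls in those steps therefore have no background.

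**Figure D1:**
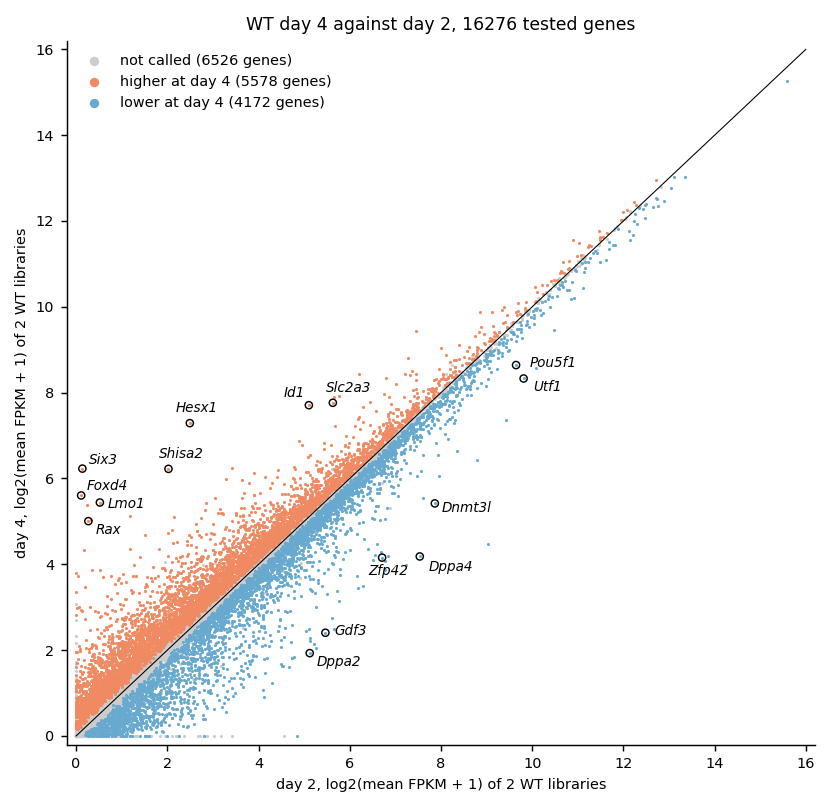
Mean level of each of the 16276 tested genes at day 2 (horizontal) and day 4 (vertical), as log2(mean FPKM + 1) of 2 WT libraries, with genes called higher in orange (5578), called lower in blue (4172) and not called in grey. Six3, Foxd4, Lmo1 and Rax stand at the left edge near 0 at day 2, while Dppa4, Dppa2, Gdf3 and Zfp42 lie farthest below the line of equal levels among the genes circled.

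The promoters of 4 genes are shown first. They hold a sequence element found in 10 of 24 promoters of glycolysis and hypoxia genes, the list with the most rises of at least 1 in this step. The promoters belong to Egln1, an oxygen-sensing enzyme that marks HIF for breakdown, P4ha1, a collagen prolyl hydroxylase, Bnip3, a mitophagy receptor, and Ankrd37, an ankyrin repeat gene known as a HIF target. These are the members of the glycolysis and hypoxia list that rose most among those whose promoter holds the element searched. Each line gives the 250 bases before the transcription start, 5′ to 3′ on the gene's strand, from RefSeq on GRCm38.p6. Capitals mark ACGTGC, or GCACGT where the element lies on the opposite strand.
Egln1 (chr8:124949255-124949504, minus strand): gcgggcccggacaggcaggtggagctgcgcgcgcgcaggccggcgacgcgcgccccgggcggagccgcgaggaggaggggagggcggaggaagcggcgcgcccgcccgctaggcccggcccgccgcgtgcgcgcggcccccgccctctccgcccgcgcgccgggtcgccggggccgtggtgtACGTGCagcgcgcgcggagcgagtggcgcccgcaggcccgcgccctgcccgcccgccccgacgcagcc
P4ha1 (chr10:59323046-59323295, plus strand): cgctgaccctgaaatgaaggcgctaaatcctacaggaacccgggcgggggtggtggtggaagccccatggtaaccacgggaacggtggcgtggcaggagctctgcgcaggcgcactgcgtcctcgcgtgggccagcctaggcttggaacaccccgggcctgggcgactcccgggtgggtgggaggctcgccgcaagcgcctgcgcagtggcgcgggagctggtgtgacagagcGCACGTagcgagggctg
Bnip3 (chr7:138909507-138909756, minus strand): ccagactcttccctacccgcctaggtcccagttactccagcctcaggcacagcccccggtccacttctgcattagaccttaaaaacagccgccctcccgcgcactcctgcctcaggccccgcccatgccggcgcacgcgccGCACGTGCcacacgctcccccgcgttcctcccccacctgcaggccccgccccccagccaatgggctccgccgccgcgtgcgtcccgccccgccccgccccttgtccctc
Ankrd37 (chr8:45999851-46000100, minus strand): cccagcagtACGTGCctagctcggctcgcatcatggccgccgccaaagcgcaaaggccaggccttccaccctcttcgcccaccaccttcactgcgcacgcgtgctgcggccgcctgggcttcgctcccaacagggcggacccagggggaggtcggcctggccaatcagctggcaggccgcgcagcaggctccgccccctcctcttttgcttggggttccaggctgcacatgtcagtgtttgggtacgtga
The element began 68 bases before the start in Egln1, 17 before it in P4ha1 and 241 before it in Ankrd37. In Bnip3 a reverse match and a forward match overlapped, beginning 109 and 107 bases before the start, in that order.

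The eye field appeared in this step. Of its 9 listed genes 7 rose and 0 fell, with a median change of 1.31 against 0.04 over all tested genes. Six3, a homeobox gene of the anterior forebrain and eye field (GRCm38 chromosome 17, 85613608 to 85629302), stood at 0.11 and 0.09 FPKM at day 2 and at 73.79 and 74.30 FPKM at day 4. The change was 6.09 on the log2 scale (SE 0.07, limma adjusted p = 4.77e-22), the largest rise of any tested gene, and the groups lay far apart. Rax, the gene whose reporter names the line (chromosome 18, 65928277 to 65939787), stood at 0.13 and 0.28 FPKM and then at 30.70 and 31.54 FPKM. It rose by 4.74 (SE 0.06, limma adjusted p = 4.26e-21). The row of the eGFP reporter was at 0.22 and 0.27 FPKM, then at 31.40 and 32.26 FPKM, a change of 4.72 (SE 0.20). Reporter and gene thus stood at nearly the same FPKM at day 4.

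Lhx2, a LIM homeobox gene needed for the optic vesicle, was at 0.29 and 0.58 FPKM at day 2 and at 14.43 and 12.97 FPKM at day 4, a 31.5-fold higher mean. Pax6, a paired box gene of eye and forebrain, was at 0.59 and 1.47 FPKM and then at 5.96 and 4.19 FPKM, a change of 1.60 (SE 0.15). Mab21l2, expressed in the early eye, rose by 1.31 to 2.87 and 2.59 FPKM. The list was therefore uneven in timing. Six6 and Hmx1, genes of the developing eye, rose by 0.23 and 0.37 and stayed under 1 FPKM in all 4 libraries. The call of Hmx1, and with it 1 of the 7, was lost with the compared groups alone (limma adjusted p = 0.124), without day 2 replicate 2 (0.178) and without day 4 replicate 1 (0.258). Nr2e1 (0.04 FPKM in both day 4 libraries) and Mab21l1 (0.05 FPKM in both) were not called. All 9 genes rose from day 4 to day 6, a comparison that shares the day 4 libraries. Lhx2 reached a mean of 234 FPKM and Six6 a mean of 69.7 FPKM. A gene was tested if at least 2 of the 32 libraries held at least 1 FPKM. Six6 and Hmx1 thus passed only through libraries outside this step, so the count of later rises was partly fixed by that filter.

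**Figure D2:**
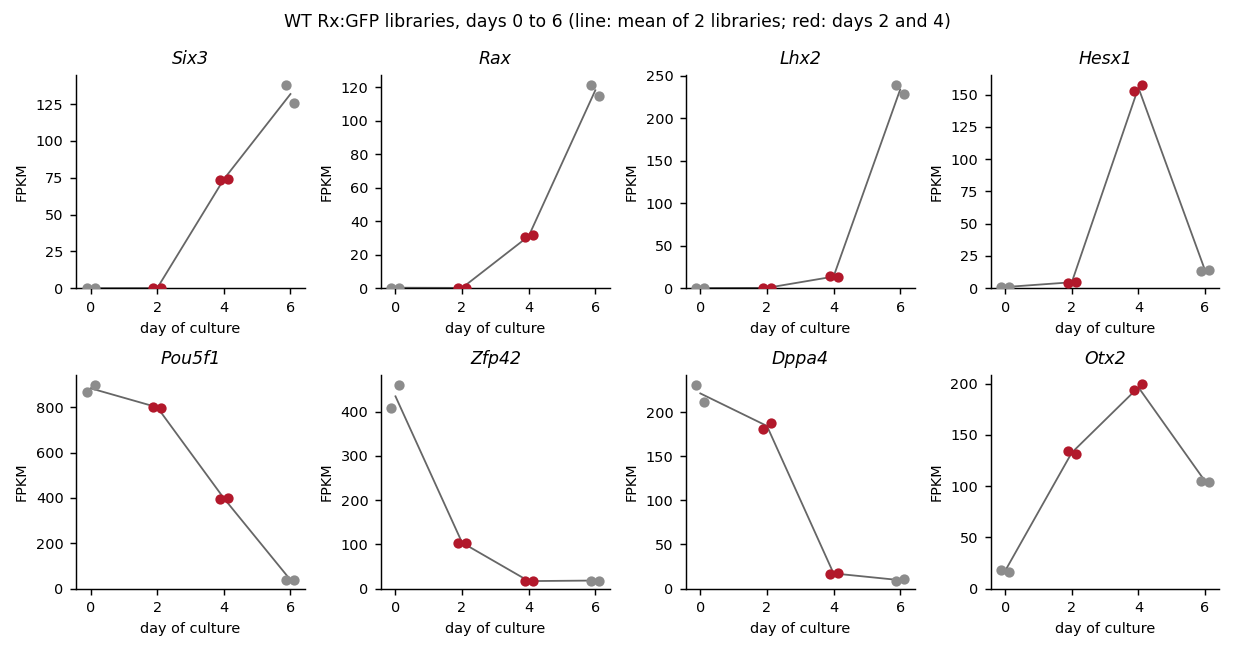
FPKM of 8 genes (vertical) in each WT library by day of culture (horizontal), with the day 2 and day 4 libraries in red and a line through the means of 2 libraries. Six3 and Rax leave 0 between days 2 and 4, Hesx1 peaks at day 4 at 153.09 and 157.72 FPKM, and Dppa4 drops in the same interval.

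Part of the anterior forebrain genes outside the eye field rose as well. Among 13 tested genes of a list of 14, which also holds Six3, 8 rose, 1 fell and 4 were not called, with a median of 1.08. Hesx1, a homeobox repressor of the anterior neural plate (chromosome 14, 26994416 to 27002329), went from 4.38 and 4.88 FPKM to 153.09 and 157.72 FPKM, a change of 4.80 (SE 0.13, limma adjusted p = 9.74e-17). Lhx5, a LIM homeobox gene of the forebrain, went from 0.15 and 0.20 FPKM to 40.54 and 41.48 FPKM, a change of 5.16. Neither overlapped between days, and both stood lower again at day 6, with means of 13.9 FPKM for Hesx1 and 13.2 FPKM for Lhx5. Fezf1, a zinc finger repressor of the forebrain, was listed at 0 in both day 2 libraries and stood at 13.25 and 12.62 FPKM at day 4. Its paralog Fezf2 rose to 12.36 and 12.23 FPKM. Emx2 and Dlx5, homeobox genes of the dorsal and ventral forebrain, rose by 1.08 and 1.12 to levels near 2 FPKM or below.

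Several of the largest rises belonged to genes outside these lists. Foxd4, a forkhead gene of the early neural ectoderm, rose by 5.49 (SE 0.05, limma adjusted p = 3.77e-23), from 0.08 FPKM in both day 2 libraries to 47.28 and 48.01 FPKM, and its mean at day 6 was 2.15 FPKM. Lmo1, a LIM-only cofactor, rose by 4.92 to 41.20 and 43.61 FPKM. Shisa2, which holds back maturation of Frizzled and FGF receptors, rose by 4.20 to 74.60 and 72.89 FPKM. Robo3, an axon guidance receptor, and Rgma, a repulsive guidance molecule that acts as a BMP co-receptor, rose by 4.14 and 3.93. Robo3 then stood at 3.34 FPKM at day 6, while Rgma stood at 33.4 FPKM.

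General neural progenitor genes rose more modestly. Of 18 listed, 14 rose and 3 fell, and the median change was 0.75. Hes5, a Notch target of neural progenitors, rose by 2.22 from 0.63 and 0.46 FPKM to 7.05 and 5.46 FPKM. Msi1, an RNA-binding protein of progenitors, went from 12.25 and 13.23 FPKM to 57.71 and 59.95 FPKM, a change of 2.12. Cdh2, the neural cadherin, went from 5.34 and 5.22 FPKM to 26.20 and 26.16 FPKM, a change of 2.11. Sox1, the earliest SoxB1 gene restricted to neural tissue, rose by 1.83 but reached only 5.56 and 5.73 FPKM. Sox11 rose by 1.26, Nes by 0.57 and Sox3 by 0.39. Sox21 fell by 0.32 to about 1 FPKM. Among 15 genes of neurogenesis and early neurons 6 rose (40%) and 1 fell (6.7%), with a median of 0.07. Neurog2, a proneural bHLH factor, had the largest of these rises, from 0.05 and 0.10 FPKM to 6.72 and 6.60 FPKM, and was back at a mean of 0.245 FPKM at day 6.

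Genes that pattern the optic vesicle after the eye field were mostly not called. Of 17 tested among 18 listed, 12 were not called, 4 rose and 1 fell, with a median of 0.04, the same as all tested genes. With 0.1 added to FPKM in place of 1, the list median was 0.20. Pax2, a gene of the ventral optic vesicle and optic stalk, rose from 0.03 and 0.06 FPKM to 3.20 and 3.39 FPKM. Bmp7, a ligand of the early eye, rose from 0.58 and 0.74 FPKM to 3.81 and 3.83 FPKM. Mitf, the pigment cell factor of the later retinal pigment epithelium, fell by 0.82 from 1.59 and 1.57 FPKM to 0.43 and 0.49 FPKM. Vax1 and Vax2, ventral eye homeobox genes, were under 1 FPKM in all 4 libraries and not called, and their day 6 means were 44.8 and 53.6 FPKM. From day 4 to day 6, 15 of the 17 rose. Vax1 and Vax2 passed the filter on low values only through libraries outside this step, so this count was partly fixed by the filter.

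More posterior neural genes moved both ways. Of 17 genes of midbrain, hindbrain and caudal neural tissue 8 rose (47.1%) and 5 fell (29.4%), with a median of 0.08. The shares over all tested genes were 34.3% and 25.6%. With the compared groups alone 7 rose and 4 fell, and the calls of Irx2 and Dmbx1 were lost. Irx3, an Iroquois homeobox gene expressed behind the forebrain, rose by 1.81 to 4.40 and 4.91 FPKM, and its relatives Irx5 and Irx1 rose by 0.95 and 0.88 to under 2 FPKM. Gbx2, which sets the hindbrain side of the midbrain-hindbrain border and is also a naive pluripotency factor, fell by 2.41 from 5.76 and 6.33 FPKM to 0.30 and 0.35 FPKM. Otx2, its anterior counterpart, rose by 0.56 to 193.37 and 199.44 FPKM. En2 and Pax8, genes of the midbrain-hindbrain region, changed by -1.13 and -1.05.

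Pluripotency genes fell unevenly. Pou5f1, the core factor also called Oct4 (chromosome 17, 35506018 to 35510772), went from 801.56 and 798.93 FPKM to 396.24 and 400.99 FPKM, which was 2.01-fold lower (SE 0.05 on the log2 scale, limma adjusted p = 3.02e-12). Nanog, a factor of the naive and early epiblast states, had a day 0 mean of 177 FPKM and fell by 0.24 in this step, from 15.30 and 16.06 FPKM to 12.47 and 13.87 FPKM. Sox2, shared by pluripotent and neural cells, rose by 0.23 to 180.27 and 183.48 FPKM. At day 4 the cultures thus held Six3 and Rax mRNA together with Pou5f1 at these levels, and whether these lay in the same cells is not measured in bulk RNA.

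Of 15 naive pluripotency genes 12 fell and 0 rose, with a median of -1.59. Fgf4, the FGF ligand of embryonic stem cells, fell by 2.61 from 33.73 and 32.69 FPKM to 4.49 and 4.73 FPKM. Zfp42, known as Rex1, fell by 2.55 from 103.88 and 103.36 FPKM to 17.12 and 16.52 FPKM. The changes of Nr0b1, Esrrb and Klf2, pluripotency transcription factors, were -2.41, -1.73 and -1.72. These genes had mostly begun to fall earlier, since 14 of the 15 also fell from day 0 to day 2, which shares the day 2 libraries. Klf4 was not called, at 2.49 and 2.27 FPKM and then 2.33 and 2.85 FPKM, after a day 0 mean of 57.2 FPKM.

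Of 14 formative and primed epiblast genes 11 fell and 3 rose, with a median of -1.18. The largest falls were those of Dppa4 and Dppa2, paired chromatin factors of pluripotent cells. Dppa4 (chromosome 16, 48283733 to 48294237) went from 181.21 and 187.63 FPKM to 16.47 and 17.84 FPKM, a change of -3.35 (SE 0.18, limma adjusted p = 3.48e-12), and Dppa2 went from 33.94 and 33.71 FPKM to 2.85 and 2.77 FPKM, a change of -3.19. Dppa4 had a day 0 mean of 221 FPKM. Utf1, a chromatin protein of the epiblast, fell by 1.48 but was still at 320.55 and 321.06 FPKM, and Foxd3, a forkhead factor of the epiblast, fell by 2.60. Fgf5, a marker of the formative epiblast, rose by 0.30 to 44.73 and 46.16 FPKM, and Otx2 and Sall2 also rose. The call of Fgf5 was lost at a pseudocount of 0.1 (limma adjusted p = 0.343) and without day 2 replicate 1 (0.056). From day 4 to day 6, 13 of the 14 fell.

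Other large falls joined them. Tdh, threonine dehydrogenase of mouse stem cell metabolism, fell by 3.24 from 150.56 and 147.33 FPKM to 15.77 and 13.93 FPKM. Gdf3, a TGF-beta family ligand of pluripotent cells, fell by 3.06 from 42.73 and 43.63 FPKM to 4.50 and 4.09 FPKM. Rpl39l, a ribosomal protein paralog, Sgk1, a serum and glucocorticoid regulated kinase, and Morc1, a germline silencing factor, had changes of -3.21, -3.18 and -3.06. Of 10 germline genes 9 fell, among them Mael (-2.14) and Dazl (-1.37), and Sycp3, a meiotic chromosome protein, rose by 0.35. Of 8 genes of DNA methylation 5 fell and 1 rose. Dnmt3l, the cofactor of the de novo methyltransferases, fell by 2.45 from 235.08 and 229.04 FPKM to 42.69 and 40.88 FPKM, Dnmt3a and Tet1 changed by -1.49 and -1.06, while Tet3 rose by 0.39.

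**Figure D3:**
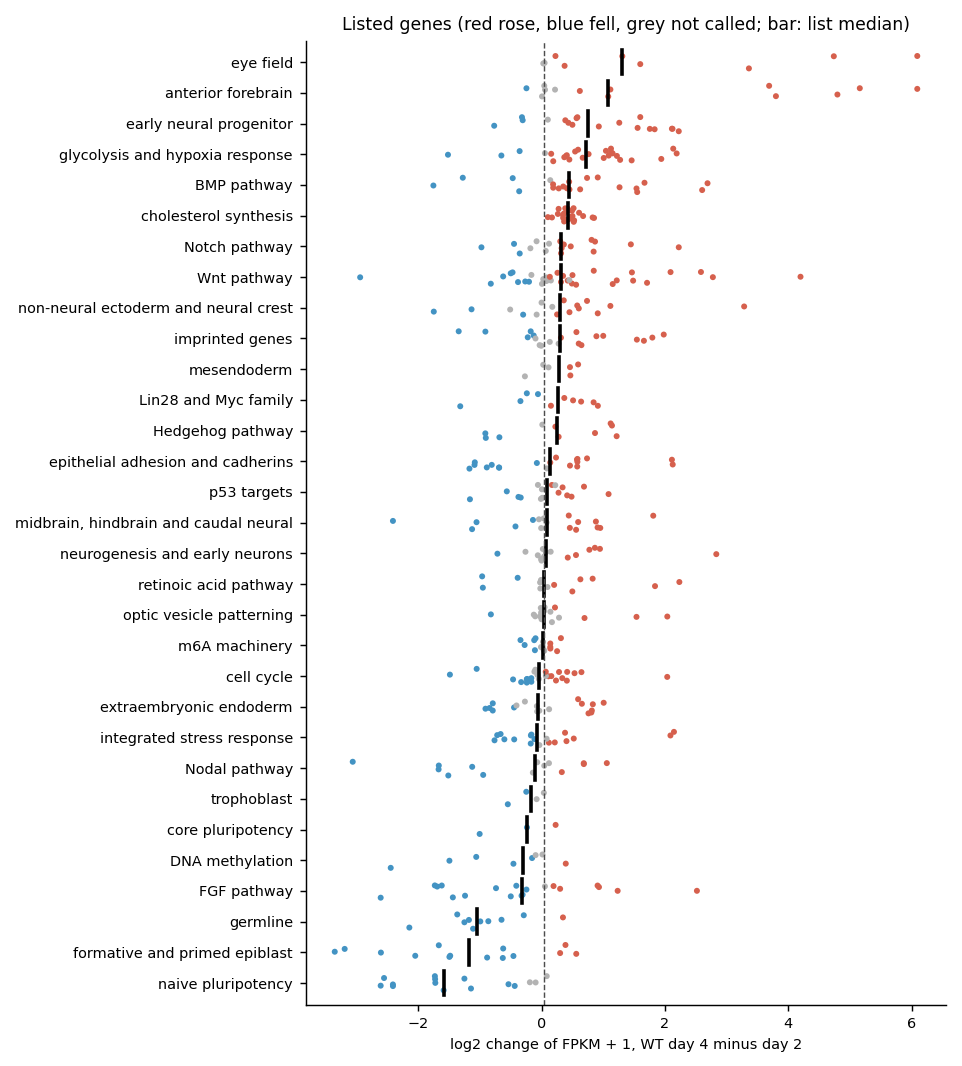
Log2 change of FPKM + 1 from day 2 to day 4 in WT (horizontal) for each tested member of 31 gene lists (rows, ordered by their median), with rises in red, falls in blue, genes not called in grey, a bar at the list median and a dashed line at the median of all tested genes, 0.04. The eye field has the highest median (1.31) and the naive pluripotency list the lowest (-1.59), and all 23 cholesterol synthesis genes lie to the right of 0 within a narrow range.

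In the Nodal pathway, the TGF-beta branch that keeps the epiblast and induces mesendoderm, 6 of 14 genes fell (42.9%) and 4 rose (28.6%). The ligand Nodal fell by 1.67 from 7.46 and 7.61 FPKM to 1.79 and 1.58 FPKM, its co-receptor Tdgf1 fell by 1.67, and its feedback inhibitors Lefty2 and Lefty1 changed by -1.51 and -1.12. The transcriptional partner Foxh1 was not called, at 119.89 and 117.80 FPKM and then 113.27 and 113.03 FPKM, and the effector Smad3 rose by 1.06.

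In the FGF pathway 12 of 19 genes fell and 6 rose. The falls were led by the ligand Fgf4 and by transcriptional targets of ERK signalling. Etv5 fell by 1.73 from 78.40 and 78.60 FPKM to 22.77 and 23.14 FPKM, and its relative Etv4 fell by 1.62. The feedback inhibitors Spry4 and Dusp6 changed by -1.69 and -1.44. The receptors went the other way. Fgfr2 rose by 2.52 from 7.78 and 6.67 FPKM to 46.35 and 45.74 FPKM, Fgfr1 by 1.23 and Fgfr3 by 0.93.

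In the BMP pathway 16 of 21 genes rose and 4 fell, with a median of 0.45. Of the direct target genes of the Id family, inhibitors of bHLH factors, Id1, Id2 and Id3 rose by more than 1.5, while Id4 fell by 0.36 from 1.88 and 2.05 FPKM to 1.10 and 1.53 FPKM, a call lost with the compared groups alone. Id1 went from 33.75 and 32.99 FPKM to 205.37 and 210.58 FPKM, a change of 2.60 (SE 0.02, limma adjusted p = 3.77e-23), and its day 6 mean was 61.5 FPKM. Id2 rose by 2.69 to 26.48 and 27.32 FPKM, and Id3 by 1.55 to 150.99 and 145.54 FPKM. Among the ligands, Bmp7 rose as given above, while Bmp4 fell by 1.75 (SE 0.33) from 39.99 and 37.41 FPKM to 9.04 and 12.79 FPKM. The antagonist Grem1 rose by 1.67 from 0.02 FPKM in both libraries, and the antagonist Chrd fell by 0.47.

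In the Wnt pathway 18 of 33 genes rose (54.5%, against 34.3% of all tested genes) and 8 fell (24.2%, near the 25.6% of all tested genes). The largest rises were of Shisa2, described above, and of secreted antagonists. Frzb rose by 2.78 from 0.12 and 0.06 FPKM to 6.81 and 6.15 FPKM, and Sfrp1 by 2.58 from 6.28 and 6.14 FPKM to 41.36 and 43.16 FPKM. Of the receptors, Fzd5, which acts in the eye field, rose by 2.09 to 35.25 and 36.24 FPKM and Fzd8 by 1.71. Notum, a secreted Wnt deacylase, fell by 2.94 from 26.58 and 26.46 FPKM to 2.25 and 2.95 FPKM. The feedback target Axin2 was not called, at 2.07 and 2.27 FPKM and then 2.25 and 2.46 FPKM, and Sp5, another target, was under 0.2 FPKM in all 4 libraries.

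Among 17 Notch genes 10 rose (59%) and 3 fell (18%). Besides Hes5, the targets Hey1 and Hes1 rose by 1.45 and 0.84 and the modifier Lfng by 0.87, and Hes6, which opposes Hes1, fell by 0.97. Of 10 Hedgehog genes 6 rose, among them the co-receptor Gas1 (1.22), the transducer Smo (1.14) and the factor Gli3 (1.12), which acts mainly as a repressor. Ptch1 (-0.91) and Gli1 (-0.68), both common transcriptional readouts of the pathway, were among the 3 that fell. In this list 60% rose and 30% fell. Of 14 retinoic acid genes 6 rose (42.9%, against 34.3% of all tested genes) and 3 fell (21.4%, against 25.6%). Crabp2, a carrier of retinoic acid, went from 72.84 and 71.90 FPKM to 341.33 and 347.18 FPKM, a 4.76-fold rise. The receptor Rara fell by 0.96. Cyp26a1, the enzyme that degrades retinoic acid and a target of it (chromosome 19, 37697798 to 37701536), was not called in WT, at 8.38 and 8.37 FPKM and then 8.93 and 9.12 FPKM.

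Glycolysis and hypoxia response genes rose together in this step. Of 26 listed, 22 rose, 12 of them by at least 1, and 3 fell, with a median of 0.71 against 0.04 over all tested genes. Adm, the vasodilator adrenomedullin, went from 1.4 and 1.23 FPKM to 9.47 and 9.65 FPKM, a change of 2.19 (SE 0.08, limma adjusted p = 8.75e-15). Slc2a3, a glucose transporter (chromosome 6, 122727809 to 122801640), went from 48.51 and 48.44 FPKM to 215.67 and 217.00 FPKM, a 4.46-fold rise. Egln3, an oxygen-sensing prolyl hydroxylase, went from 4.66 and 4.74 FPKM to 20.58 and 21.21 FPKM, a change of 1.94. None of these overlapped between days. Pgk1, a glycolytic enzyme, rose from 463.46 and 465.50 FPKM to 933.56 and 937.20 FPKM, and Slc2a1, the other main glucose transporter, from 259.10 and 252.14 FPKM to 528.67 and 527.47 FPKM. Ldha, lactate dehydrogenase, rose by 0.67 to 3018.8 and 3010.4 FPKM.

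The genes with the promoters printed above rose by 1.46 (Egln1, from 11.50 and 11.91 FPKM to 33.73 and 34.20 FPKM), 1.22 (P4ha1), 1.13 (Bnip3, from 68.78 and 66.81 FPKM to 150.61 and 147.85 FPKM) and 1.13 (Ankrd37). Over the list, 24 of 26 members had a RefSeq promoter in the table used, counted from 250 bases before to 50 after the start. Of these 24, 10 held ACGTGC on either strand (41.7%), against 1600 of all 27025 promoters of the same length (5.9%). The 10 were Slc2a1, Ldha, Pgk1, Slc16a3, Pgam1, Car9 and the 4 shown, and Car9, a carbonic anhydrase, was not called. A match describes these letters and is no proof of binding. Adm and Egln3, which rose more than the 4 shown, held no match. Elements of other lists were searched too. TGATGNAA stood in 29.4% of integrated stress response promoters (4.1% of all), a list with 7 rises and 9 falls. TGGGAA stood in 21.4% of Notch promoters (25.5% of all). ATGCAAAT stood in 0 of 3 core pluripotency promoters (1.8% of all). Exceptions within the list were Pdk1, the kinase that restrains pyruvate entry into mitochondria, which fell by 1.52 from 51.27 and 49.23 FPKM to 16.87 and 16.93 FPKM, and Ldhb and Pfkp, which changed by -0.65 and -0.36. Ndufa4l2, a mitochondrial protein known as a HIF target and not in the list, rose by 1.90 from 16.45 and 16.84 FPKM to 63.63 and 66.06 FPKM. The rise was not confined to this step, since 18 of the 26 had also risen from day 0 to day 2, which shares the day 2 libraries, and 7 had fallen. From day 4 to day 6, 18 of the 26 fell and 5 rose.

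Mitochondrially encoded transcripts went the other way. Of 15, 13 fell, with mt-Co1, a subunit of cytochrome oxidase, at 10346 and 10395 FPKM and then 8349.1 and 8447.4 FPKM, and mt-Nd3 and mt-Rnr1 were not called. mt-Atp8, the highest row of all, stood at 50019 and 49028 FPKM and then at 39231 and 39042 FPKM. The largest rise in FPKM among all genes was that of Gapdh, from 6704.0 and 6661.6 FPKM to 7916.5 and 7926.0 FPKM, a change of only 0.25. Ldha and Pkm, pyruvate kinase (0.45), came next, and Rps2 (0.20) and Eef1a1 (0.17) were also among the largest. Gapdh, Rps2 and Eef1a1 have processed pseudogenes that can share their reads, so their values are uncertain.

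Cholesterol synthesis genes rose together but by little. All 23 of the list were called higher, none by 1 or more, with a median of 0.43 and a range of 0.10 to 0.85. Hmgcs1, the enzyme making HMG-CoA, went from 62.10 and 62.49 FPKM to 113.86 and 112.48 FPKM, a change of 0.85 (SE 0.02, limma adjusted p = 1.69e-16). Srebf2, the pathway's main transcription factor, rose by only 0.10 (limma adjusted p = 0.043). That call was lost under rescaling, where 22 of the 23 were called higher, and with any of the 4 libraries left out. All 23 had fallen between day 0 and day 2. The sterol element TCACNCCAC stood in 1 of 16 promoters found for the list (6.2%), that of Hmgcs1, against 1.2% of all promoters.

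Stress, growth and adhesion genes changed in smaller groups. Among 18 genes of the integrated stress response 7 rose and 9 fell, so the list had no common direction. Ddit4, an inhibitor of mTORC1 that is also induced by low oxygen, rose by 2.15 from 53.24 and 54.07 FPKM to 237.95 and 244.16 FPKM, and Vldlr, a lipoprotein receptor, by 2.09, while Trib3, a pseudokinase, fell by 0.76. Among 16 p53 targets 7 rose (43.75%, against 34.3% of all tested genes) and 4 fell (25%, against 25.6%), or 6 and 6 after rescaling. Btg2, an antiproliferative gene, was higher by 1.09, while Gdf15, a stress cytokine, changed by -1.16. Of 25 cell cycle genes 11 rose and 9 fell, or 7 and 12 after rescaling. Ccnd2, a D-type cyclin, rose by 2.04 from 0.41 and 0.35 FPKM to 4.89 and 4.45 FPKM, and Cdkn2a, which encodes CDK and MDM2 inhibitors, fell by 1.49. Mycn fell by 1.32, while the RNA-binding genes Lin28a and Lin28b rose by 0.64 and 0.84.

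Of 19 epithelial adhesion genes 10 rose and 8 fell, or 8 and 8 after rescaling and 8 and 7 without the filter on low values. Cdh1, epithelial cadherin, fell by 0.69 from 120.58 and 120.23 FPKM to 74.95 and 73.61 FPKM in the step in which Cdh2 rose, so that Cdh1 still had the higher FPKM at day 4. Cldn3, a tight junction claudin, rose by 2.13 and Epcam fell by 0.81. Of 20 imprinted genes 10 rose and 5 fell, or 3 fell without day 4 replicate 2. Mest, an imprinted hydrolase-like gene, went from 183.31 and 164.20 FPKM to 666.49 and 710.09 FPKM, a change of 1.98, Ndn, a neuronal growth suppressor, rose by 1.80 and Sfmbt2, a Polycomb group gene, fell by 1.34. Of 15 genes of the m6A machinery 5 rose and 5 fell (33.3% each), none by more than 0.34, and after rescaling 2 rose and 5 fell. With the compared groups alone 2 rose and 4 fell, without day 4 replicate 2 these numbers were 3 and 4, and without day 2 replicate 1 or day 4 replicate 1 they were 5 and 3. Mettl3 fell by 0.27, from 40.19 and 41.21 FPKM to 32.51 and 34.47 FPKM.

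Markers of other cell types were measured beside these. Of 12 mesendoderm genes 6 passed the filter on low values, and 3 of those rose, among them Sox17 by 0.59 and Eomes by 0.47, while T, Mixl1 and Mesp1 did not reach the filter. Of 18 genes of extraembryonic endoderm, the yolk sac lineage that stem cell cultures can also form, 7 rose (38.9%) and 5 fell (27.8%). The list median was -0.05. The summed level of the list was 260.3 and 258.7 FPKM at day 2 and 351.6 and 359.4 FPKM at day 4. Its defining factors Gata4 (5.42 and 5.31, then 5.95 and 5.91 FPKM) and Gata6 (3.65 and 4.41, then 3.65 and 3.87 FPKM) were not called, so a signal of this lineage was present at both days. The yolk sac endocytosis genes Cubn and Amn changed by -0.91 and -0.84, and Col4a1, a basement membrane collagen, rose by 1.01. The part of these cells in the falls and rises above was not tested. Of 8 trophoblast genes 4 passed the filter, and 0 rose and 2 fell. These 2, Hand1 and Ascl2, lost their calls without day 2 replicate 1 and with the compared groups alone, where 0 fell, and 1 fell with either day 4 library left out. Among 16 genes of non-neural ectoderm and neural crest 9 rose and 3 fell. Without the filter on low values these numbers were 7 and 3, and after rescaling 8 and 4. Sox9, a factor of crest and of neural progenitors, rose by 3.29 from 0.12 and 0.17 FPKM to 10.32 and 10.00 FPKM, and Grhl2, an epithelial factor of surface ectoderm, fell by 1.75.

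Genes on chromosome 8, singled out from earlier results of these data, were shifted as a group. The median change of its 858 tested genes was -0.07, with 219 higher and 331 lower, which was -0.12 relative to all other tested genes. No other autosome, nor the X chromosome, lay as far below the rest in WT, while the 15 mitochondrial genes described above lay at -0.40. The relative shift of chromosome 8 was -0.01 in the libraries labelled KO and 0.00 in the fusion line with Dex. Relative shifts of -0.11 from day 0 to day 2 and -0.08 from day 4 to day 6 were also seen in WT. Among the genes named above, Zfp42, Klf2, Sox1, Irx3, Irx5, Sfrp1, Fgfr1, Cdh1, Col4a1, Egln1, Ankrd37 and Gdf15 lie on this chromosome. Without its genes, an alternative chosen after seeing the data, the median of the naive pluripotency list was -1.25 and that of the glycolysis and hypoxia list 0.63. The part of this shift in the changes of single genes was not tested.

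**Figure D4:**
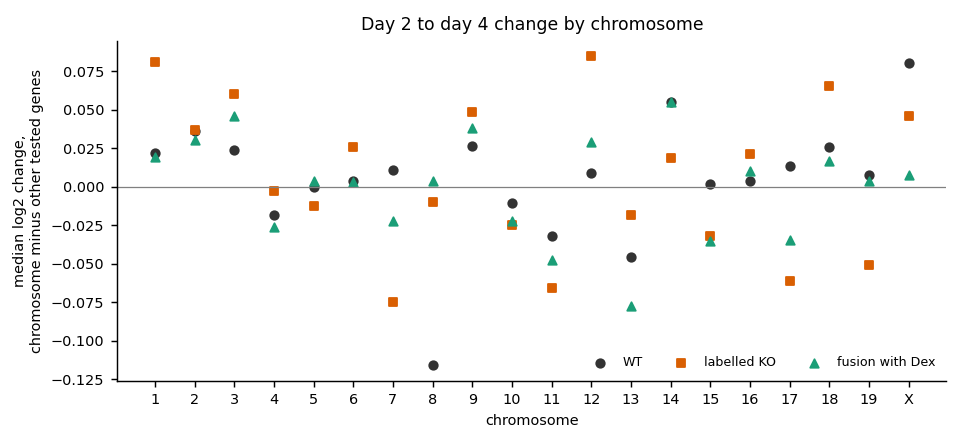
Median log2 change from day 2 to day 4 of the tested genes of each autosome and the X chromosome (horizontal) minus the median of all other tested genes (vertical), for WT (circles), the libraries labelled KO (squares) and the fusion line with Dex (triangles). Chromosome 8 in WT, at -0.12, is the lowest point among these chromosomes, and the other cultures lie near 0 there. Mitochondrial genes are not plotted.

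The same step was then set beside that of the other cultures. Mettl3 mRNA gave no check of the KO label. Its means there were 39.9 FPKM (day 2) and 36.6 FPKM (day 4), and in WT 40.7 and 33.5 FPKM, so the lower level a knockout can give was absent. The genotype rests on the label and every direction below is that of libraries so labelled. Gene-level FPKM does not show a small deletion. The change from day 2 to day 4 differed from that of the libraries labelled KO for 6893 genes (42.4%; limma interaction contrast, adjusted p under 0.05), by at least 1 for 497 of them (3.05%). It differed from that of the fusion line with Dex for 5689 genes (35%), by at least 1 for 320 (1.97%). As deposited 38.1% of these 5689 had the more positive change in WT, and after median-of-ratios rescaling, which sets the libraries to a common median gene, 51.7% of those then called did. Of the 730 WT rises of at least 1, 356 were also rises of at least 1 in the libraries labelled KO, which is 48.8% of the WT rises and 54.7% of the 651 there. With Dex the shared rises were 547, or 74.9% of the WT rises and 51.0% of 1073. For falls the shared numbers were 387 (66.7% of 580 and 53.3% of 726) and 402 (69.3% of 580 and 58.9% of 682). At any size, 642 of the 730 WT rises were also called higher in the libraries labelled KO, and 17 were called lower. With Dex these numbers were 696 and 4. Of the 580 WT falls, 528 were also called lower in the libraries labelled KO and 4 higher, and with Dex 546 and 1. These comparisons share no library with the WT one. The shares of all tested genes called higher or lower in those cultures are not given, so the counts at any size have no background.

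Eye-field genes differed between the cultures. Six3 went from a mean of 0.155 to 7.13 FPKM in the libraries labelled KO, a smaller rise than in WT by 3.28 (SE 0.10, limma adjusted p = 8.44e-15), and to 127 FPKM with Dex. Rax went from 0.43 to 1.21 FPKM in the libraries labelled KO, smaller than the WT rise by 4.11 (SE 0.09, limma adjusted p = 1.22e-16), and to 74.5 FPKM with Dex. The eGFP reporter differed by 4.53 from the libraries labelled KO. The WT rise of Lhx2 minus that in the libraries labelled KO was 2.06, and minus that with Dex it was -2.21. Pax6 did not follow this order. Its difference from the libraries labelled KO was 0.07 (SE 0.21, limma adjusted p = 0.838), and with Dex it reached 40.6 FPKM, against 5.96 and 4.19 FPKM in WT. Mab21l2 went the other way, rising to 37.5 FPKM in the libraries labelled KO, a difference of -2.16. The anterior forebrain list, which also holds Six3, did not follow Rax and Six3 either. Its median was 1.08 in WT, 1.43 in the libraries labelled KO and 2.50 with Dex. In the libraries labelled KO 9 of its 13 tested genes rose and 0 fell, a count with no background given.

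Many posterior genes, the Wnt targets Sp5 and Axin2, and Cyp26a1 had a more negative change in WT than in the libraries labelled KO. In the list of midbrain, hindbrain and caudal neural genes this held for 11 of 17 (background 20.4%), and 1 had a more positive change (background 22%). Against Dex these numbers were 12 (background 21.7%) and 1 (background 13.3%). Members low in WT at both days, such as the midbrain gene Dmbx1, passed the filter on low values only through libraries outside the WT step. The Wnt list as a whole had no common direction against the libraries labelled KO, with 14 of 33 genes more positive and 12 more negative, and against Dex 5 were more positive and 18 more negative. Irx3 reached 95.6 FPKM in the libraries labelled KO, Irx5 53.6 FPKM and Irx1 30.1 FPKM. The differences were -2.35, -3.61 and -3.32. Sp5 reached 14.9 FPKM and Axin2 15.5 FPKM there, with differences of -3.26 and -1.31. Cyp26a1 had the largest of these differences, since it went from 0.225 to 32.2 FPKM in the libraries labelled KO, from 0.84 to 4.64 FPKM with Dex, and from 8.38 to 9.03 FPKM in WT by the means. Its difference was -4.66 (SE 0.14, limma adjusted p = 1.23e-14) against the libraries labelled KO and -1.52 against Dex. Sox21 differed by -3.35, with 17.2 FPKM in the libraries labelled KO at day 4.

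**Figure D5:**
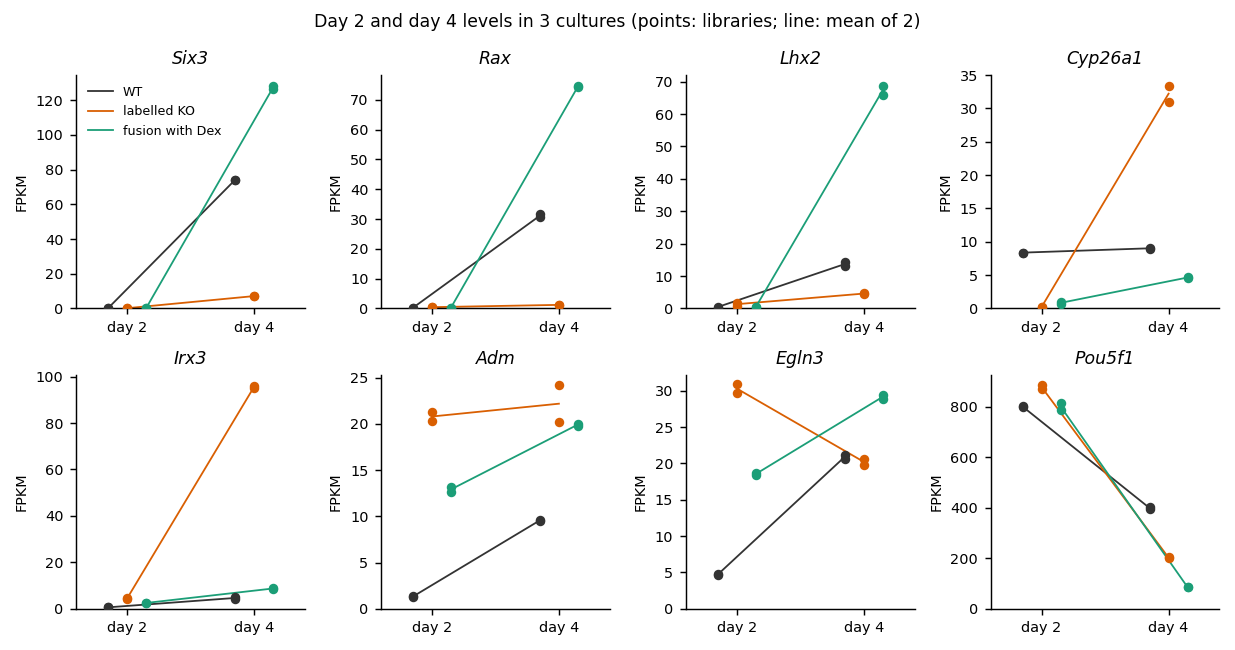
FPKM (vertical) of 8 genes at day 2 and day 4 (horizontal) in WT (black), the libraries labelled KO (orange) and the fusion line with Dex (green), with points for libraries and lines through the means of 2. Six3, Rax and Lhx2 rise least in the libraries labelled KO and most with Dex, Cyp26a1 and Irx3 rise most in the libraries labelled KO, and Adm and Egln3 start lowest in WT at day 2.

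Most glycolysis and hypoxia genes had a more positive change in WT than in the other cultures. In the list 21 of 26 had a more positive change in WT than in the libraries labelled KO (background 22%), and 18 a more positive one than with Dex (background 13.3%). The list median was 0.09 in the libraries labelled KO and 0.34 with Dex. At day 2 the libraries labelled KO already held Adm at 20.8 FPKM, Egln3 at 30.3 FPKM and Ndufa4l2, outside the list, at 97.7 FPKM, all above the WT level of day 4. From there Egln3 and Ndufa4l2 went down to 20.2 and 51.7 FPKM by day 4, and their changes differed from WT by 2.50 and 2.80. The cholesterol list had medians of 0.57 and 0.62 in the libraries labelled KO and with Dex, and the change in WT was the more negative one for 11 of its 23 genes against the former (background 20.4%) and for 16 against the latter (background 21.7%).

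Many pluripotency genes had a more positive change in WT than in the libraries labelled KO. This held for 9 of 15 naive genes (background 22%), with 2 more negative (background 20.4%), and for 8 of 14 formative genes, again with 2 more negative. Against Dex the naive genes had no common direction, with 4 more positive (background 13.3%), 3 more negative (background 21.7%) and 8 not called, while 10 of the 14 formative genes were more positive and 2 more negative. Pou5f1 went from 877 to 202 FPKM in the libraries labelled KO and from 800 to 85.0 FPKM with Dex, so that its fall was smaller in WT, with differences of 1.11 (SE 0.07, limma adjusted p = 8.76e-10) and 2.22. Utf1 reached 94.0 and 90.6 FPKM in these cultures, against 320.55 and 321.06 FPKM in WT. Dppa4 was an exception, reaching 17.1 FPKM in the libraries labelled KO, with a difference of -0.40 (SE 0.25) that was not called. The extraembryonic factor Gata4 was at 5.95 and 5.91 FPKM in WT at day 4 and at 0.39 and 0.935 FPKM by the means in the libraries labelled KO and with Dex. The part of such cells in these differences was not tested.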

How the data were processed

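Polyadenylated RNA of 32 libraries in 16 groups of 2 was measured by paired-end sequencing. The deposited table holds FPKM values for 55492 rows, made by the authors with STAR and Cuffdiff on mm10, per the submitters' processing notes, with no versions given. Positions came from GENCODE M21 (GRCm38) by gene ID, for 99.5% of rows. Low FPKM values rise in steps of whole fragments, which gave each library's depth. In the 4 libraries 88.2% to 89.7% of such values fell on a whole fragment with a tolerance of 0.2, where chance gives 40%. On a transcript of 2 kb, 3 fragments then equal between 0.0334 and 0.0423 FPKM, for counting error only.

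Genes with at least 1 FPKM in at least 2 libraries (16276) were tested with limma 3.58.1 (R 4.3.3). The input was log2(FPKM + 1), in a single fit of 16 group means with 16 residual degrees of freedom, eBayes with a trend, and two-sided p-values adjusted by Benjamini-Hochberg over all tested genes. Contrasts were WT day 4 minus day 2, and that change minus the same change in the libraries labelled KO or in the fusion line with Dex. In 5 simulations of 16276 genes for the day 4 against day 2 comparison, 72% of changes of 0.5 and 89.8% of changes of 1 were recovered, and 5.37% of calls were false. Each simulation changed only 200 genes, with noise at the spread between duplicates. In the data 59.9% of genes were called, so these rates need not hold there, and the false share covers no spread beyond that of duplicates.

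The members and the 31 gene lists (478 genes, of which 450 were tested) were chosen with earlier results of these data known. Named genes were list members, the 12 largest rises and falls on the log2 scale, the 6 largest in FPKM, the 6 largest differences from KO in each direction, Mettl3 and the reporter rows, with predicted genes left out of the rankings. Not every such gene is described singly, and some are not reported here. The rows for Cre, eYFP, mCherry and tdTomato were at 0 in all 4 libraries. The duplicates' numbers did not pair the groups: the differences between duplicates correlated at -0.07 between the 2 days. Alternatives were a pseudocount of 0.1, no filter, a mean of at least 5 FPKM, median-of-ratios rescaling, a block for the replicate number, a fit restricted to the groups compared, a minimum change of 1, and leaving out each of the 4 libraries. Promoter sequences came from a RefSeq table (GRCm38.p6), matched by symbol, with the first entry of each gene used.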

Additional observations from a re-analysis of the deposited data

Results flagged for a closer look

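The step from day 2 to day 4 differed between cultures by a direct test of the difference (limma interaction contrast, adjusted p under 0.05). It differed between WT and the libraries labelled KO for 6893 genes and between WT and the fusion line with Dex for 5689 genes. Genes that changed more positively in WT than in the libraries labelled KO included the eye-field genes Rax (a difference of 4.11 on the log2 scale) and Six3 (3.28) and the eGFP reporter (4.53). Robo3, an axon guidance receptor, differed by 2.82, Ndufa4l2, a HIF target of mitochondria, by 2.80, and Rps6kl1, a kinase-like gene, by 2.67. For Rps6kl1 the difference came with a small WT change, from 8.93 and 8.55 FPKM to 6.85 and 6.74 FPKM, beside a drop of the mean from 13.3 to 0.795 FPKM in the libraries labelled KO.

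Genes that changed more negatively in WT were the retinoic acid degrading enzyme Cyp26a1 (-4.66), the Iroquois genes Irx5 (-3.61) and Irx1 (-3.32), the neural gene Sox21 (-3.35), the Wnt target Sp5 (-3.26) and the midbrain gene Dmbx1 (-3.18). Dmbx1 was under 0.25 FPKM in all 4 WT libraries and reached a mean of 8.47 FPKM in the libraries labelled KO at day 4. All 12 kept their direction and call under every other pseudocount, filter, scaling, sample choice and block tried, wherever the gene passed the filter. With 2 libraries per group, a single outlying library could not be tested for.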

How the results depend on the processing

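Under no filter, a pseudocount of 0.1, rescaling, a fit of the compared groups alone and the replicate block, the counts of called genes over all tested genes stayed within 1.5 times. With the replicate number as a block, 9744 genes were called between day 4 and day 2, and no named gene lost its call. Rescaling gave 4733 higher and 5137 lower genes, so that rises went from 57.2% to 48.0% of the called genes and no longer outnumbered the falls. Requiring a mean of at least 5 FPKM left 9412 genes to test, of which 6469 were called, 3514 of them higher. Requiring a change of at least 1 lowered the counts by its construction, to 1310 genes, 730 higher and 580 lower, and to 497 and 320 in the differences from the libraries labelled KO and from Dex. With a library left out, the spread of the lone library being taken from the other groups, between 8649 and 8763 genes were called, 4934 to 5007 higher and 3654 to 3756 lower, and 6097 to 6122 and 4832 to 4966 in these differences.

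Besides the excess of rises over falls, the extraembryonic endoderm median changed direction, being 0.78 at a mean of at least 5 FPKM and -0.057 to 0.017 with a library left out. So did the m6A machinery median (-0.046 under rescaling) and, under rescaling, Dnmt1 (-0.067) and Mcm7 (-0.014). Mcm7 also lost its call there (limma adjusted p = 0.588), a loss not among the 16 given below. The cause of these reversals was not tested. Of the calls of single listed or named genes, 29 were lost with the compared groups alone (Nanog among them, limma adjusted p = 0.0535), 16 under rescaling, 12 without the filter, 11 at a pseudocount of 0.1 (Sox3 and Sox17 among them) and 18 to 21 with a library left out. Counts within short lists moved further than those over all genes: under rescaling cell cycle rises went from 11 to 7 and m6A rises from 5 to 2, and trophoblast falls went from 2 to 0 with the compared groups alone. The size of list medians also depended on the setting. Beyond the spread over pairs of libraries, 18 of 31 moved at a pseudocount of 0.1, 19 under rescaling and 20 at a mean of at least 5 FPKM. In the first and last of these settings the eye field median went from 1.31 to 2.23 and 3.36. That of the anterior forebrain went from 1.08 to 2.26 and 3.69. Changes of genes near 0.03 FPKM are not measurable at this depth.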
